A study of Mus musculus with 18 samples.

Results

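The clustered protocadherins are cadherin-like cell surface proteins encoded by alpha, beta and gamma gene clusters that lie next to each other on one mouse chromosome. Members were the protein-coding rows of the deposited count table named as alpha, beta or gamma clustered protocadherins. There were 24 such rows of 37310, and all 24 passed the filter on low counts that left 15433 genes for testing. They were 21 beta genes (Pcdhb1 to Pcdhb19, Pcdhb21 and Pcdhb22), 2 alpha rows (Pcdha3 and Pcdha11) and 1 gamma row (Pcdhgc5). Pcdhb20, which the count table lists as a pseudogene, fell just outside. Its level ran from 16.9 to 21.3 CPM (counts relative to the scaled library size) over the libraries. The GENCODE vM21 annotation has 22 protein-coding beta genes and gives Pcdhb20 a coding length of 2.4 kb. The beta sums, order, evenness and places below leave Pcdhb20 out.

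In neurons each clustered protocadherin has a promoter and a variable first exon of its own, and a cell switches on a subset of them, partly at random, through looping between promoters and distant enhancers that needs CTCF and cohesin. Alpha and gamma variable exons are spliced to constant exons shared by their cluster, whereas beta genes have no constant exon. The proteins bind their own kind between cells, and the resulting surface codes are known for self-avoidance of dendrites and axons, dendrite branching and neuron survival.

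RNA was sequenced from mouse cortical neurons kept in culture, which were wild type (WT) or lacked Fmr1 by knockout (KO). Fmr1 encodes FMRP, an RNA-binding protein whose gene is silenced in fragile X syndrome. At day 7 in culture the cells had received DMSO as vehicle, or JQ1, for 24 h; JQ1 displaces BET bromodomain proteins from acetylated histones. There were 4 groups of 3 libraries, 1 for each genotype with each treatment. Strain, age at dissection, JQ1 dose and Fmr1 allele are not given in the labels, which also do not say what separates replicates (culture or animal). The p-values thus reflect spread among these samples, which may be technical.

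Fmr1 was at 119 to 124 CPM in WT and 21.5 to 29.4 CPM in KO libraries in DMSO, and at 135 to 154 CPM in WT and 26.0 to 34.6 CPM in KO libraries in JQ1. Libraries held 21643592 to 134110850 gene counts. KO replicate 3 in DMSO stood apart from the other KO libraries: the chi-square per degree of freedom between replicates over genes was 40.3 and 40.8 for the pairs with it against 7.84 for the other pair. In JQ1 the KO pairs were at 24.2 and 16.6 with replicate 3 and 16.7 without, so that replicate 3 did not stand apart there. Summed neuron markers (10 genes) were at 4245 to 4456 CPM in WT and 4767 to 5106 CPM in KO in DMSO, and at 3968 to 4123 and 4397 to 4654 CPM in JQ1. Summed astrocyte markers (9 genes) were at 783 to 940 CPM in WT and 549 to 743 CPM in KO in DMSO, and at 554 to 755 and 358 to 571 CPM in JQ1. Oligodendrocyte lineage markers (8 genes) summed to 146 to 213 CPM, microglia markers (7 genes) to 6.48 to 11.7 CPM with Tmem119 and P2ry12 under 0.1 CPM, progenitor markers (8 genes) to 294 to 491 CPM, and fibroblast and vessel markers (8 genes) to 10.5 to 35.9 CPM with Cldn5 under 0.1 CPM. No listed marker was at 0 in all libraries. Fewer cells of a type and less RNA per cell cannot be told apart in such samples.

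The beta genes were all detected, at low to moderate levels. Read counts of single beta genes ran from 17 for Pcdhb1 in the poorest library to 3538 for Pcdhb7 in the richest. To compare genes, levels were put per kilobase of exon, with lengths from GENCODE vM21 that ran from 2.59 kb for Pcdhb1 to 8.7 kb for Pcdhb14. The annotation used for counting is not given, and the order and evenness below depend on these lengths. On this scale Pcdhb7 had the highest level in WT neurons in DMSO, at 7.52, 7.79 and 7.72 CPM per kb. Pcdhb17 came next at 4.48 to 5.19 CPM per kb, followed by Pcdhb11 at 3.54 to 4.33 and Pcdhb3 at 3.68 to 3.82 CPM per kb. Pcdhb1, which is the gene at the start of the cluster, was lowest at 0.283 to 0.425 CPM per kb.

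Along this order most neighbours overlapped between libraries. The exceptions in WT in DMSO were Pcdhb7 above Pcdhb17, Pcdhb17 above Pcdhb11, Pcdhb9 above Pcdhb22, Pcdhb4 above Pcdhb14 and Pcdhb14 above Pcdhb1. The evenness of the beta mixture, expressed as the number of equally expressed genes that would give the same diversity, was 17.5 ± 0.25 of 21 in WT in DMSO (SD, n = 3 libraries in this and each other group). It was 17.6 ± 0.18 in KO in DMSO, 17.5 ± 0.19 in WT in JQ1 and 17.7 ± 0.1 in KO in JQ1. These values of the whole culture overlapped between all groups.

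**Figure D1:**
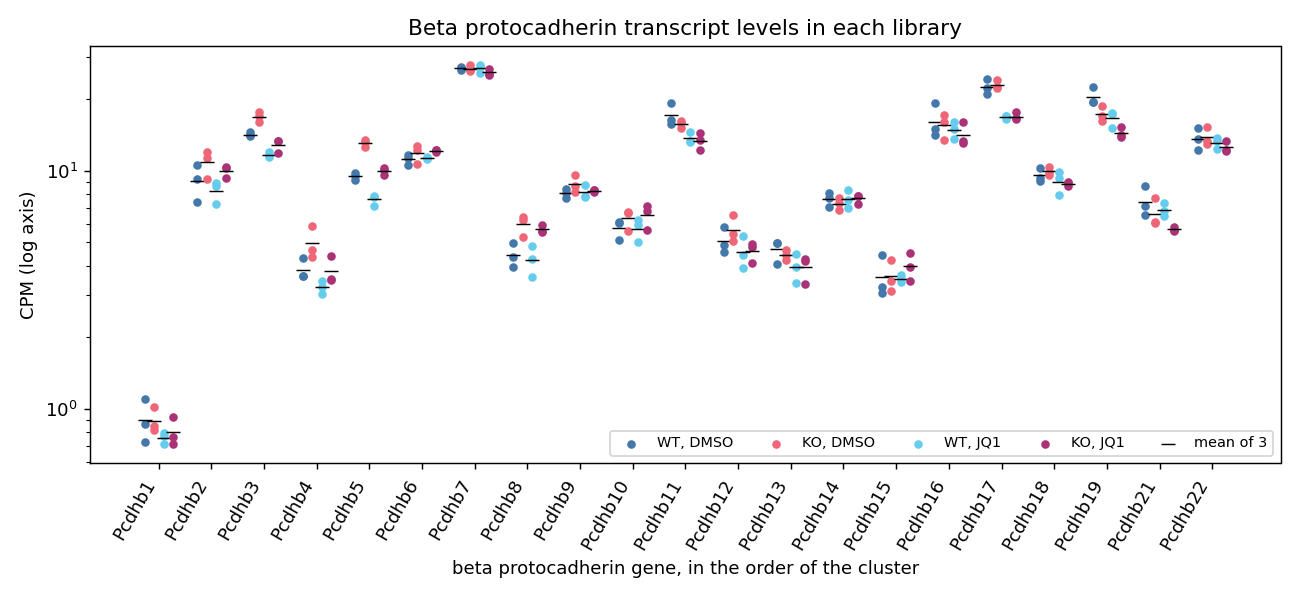
Level of each beta protocadherin in each of the 12 libraries, in CPM on a log axis, with genes in their order along the cluster; dots are libraries, coloured by group, and black dashes are means of 3 libraries. Pcdhb7 had the highest CPM and Pcdhb1 the lowest. In Pcdhb4, Pcdhb5 and Pcdhb8 the KO libraries lay above the WT libraries given the same treatment, narrowly so in Pcdhb4, which was not called between genotypes.

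Bringing the beta genes together, their summed level was 217, 211 and 235 CPM in WT in DMSO and 200, 197 and 198 CPM in WT in JQ1. In KO it was 229, 242 and 214 CPM in DMSO and 198, 211 and 195 CPM in JQ1. In both genotypes the JQ1 libraries lay below the DMSO libraries without overlap, while KO and WT libraries overlapped in DMSO and in JQ1.

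The first comparison asked how the genes responded to JQ1 in WT neurons. Of 21 beta genes, 5 fell and 0 rose (edgeR quasi-likelihood test, Benjamini-Hochberg adjusted p under 0.05 over 15433 genes), and 6 had groups whose libraries did not overlap. Over all genes tested 55.1% were called, 25.9% as higher and 29.3% as lower, and 62.6% had no overlap, while 23.8% of the beta genes were called and 28.6% had no overlap. The share of beta genes called lower was thus near the background. The median log2 change of the beta genes was -0.12 against -0.0043 over all genes, with 20 of 21 estimates below 0.

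Pcdhb17 had the largest change in WT neurons. It was at 22.2, 20.9 and 24.2 CPM in DMSO and at 17.0, 16.5 and 16.9 CPM in JQ1. Every JQ1 library was below every DMSO library, and the log2 change was -0.42 ± 0.064 (SE; adjusted p = 7.7e-05, edgeR).

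Pcdhb5 was at 9.11, 9.48 and 9.79 CPM in DMSO and 7.11, 7.79 and 7.84 CPM in JQ1 in WT neurons, a log2 change of -0.32 ± 0.071 (SE; adjusted p = 0.0016, edgeR). Pcdhb11 was at 19.1, 15.7 and 16.4 CPM in DMSO and 14.6, 13.3 and 13.2 CPM in JQ1, a log2 change of -0.31 ± 0.085 (SE; adjusted p = 0.006, edgeR). Neither gene's groups overlapped. Pcdhb19 went from 19.4, 19.4 and 22.4 CPM to 17.4, 17.3 and 15.1 CPM (log2 change -0.29, adjusted p = 0.0083, edgeR), and its call was lost without WT in DMSO replicate 3 (adjusted p = 0.064). Pcdhb3 went from 13.9, 14.5 and 14.1 CPM to 11.7, 11.4 and 12 CPM (log2 change -0.28, adjusted p = 0.0029, edgeR). All these beta genes, which differ in their extracellular recognition domains, were lower in each JQ1 library than in each DMSO library.

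The remaining 16 beta genes were not called. Pcdhb7, the most abundant per length, was at 26.3, 27.3 and 27.0 CPM in DMSO and 25.6, 27.2 and 27.6 CPM in JQ1, and its groups overlapped. Its log2 change was -0.0049 ± 0.052 (SE).

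In KO neurons 6 of 21 beta genes fell in JQ1 and 0 rose, and 8 had no overlap between groups. Over all genes 57.1% were called, 27.7% as higher and 29.4% as lower, and 60.7% had no overlap, while 28.6% of the beta genes were called and 38.1% had no overlap. The share called lower was again near the background. The median log2 change of the beta genes was -0.16 against 0.0014 over all genes, with 17 of 21 estimates below 0. The 5 beta genes called in WT were all among the 6 called in KO, which makes 100% of the WT calls and 83.3% of the KO calls; the sixth was Pcdhb4.

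Pcdhb17 was at 22.2, 23.9 and 22.3 CPM in DMSO and 16.5, 17.5 and 16.5 CPM in JQ1 in KO neurons. The groups did not overlap, and the log2 change was -0.43 ± 0.063 (SE; adjusted p = 4.4e-05, edgeR). Pcdhb5 was at 13.4, 13.2 and 12.6 CPM in DMSO and 9.55, 10.3 and 10.1 CPM in JQ1, again without overlap, a log2 change of -0.39 ± 0.067 (SE; adjusted p = 0.0002, edgeR). Pcdhb3 showed the same ordering, at 16.9, 17.6 and 15.9 CPM in DMSO and 13.4, 13.3 and 11.8 CPM in JQ1, a log2 change of -0.39 ± 0.066 (SE; adjusted p = 0.00019, edgeR).

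Of the other called genes, Pcdhb4 was at 4.65, 5.88 and 4.33 CPM in DMSO and 3.51, 4.40 and 3.47 CPM in JQ1 in KO neurons, so that its groups overlapped slightly (log2 change -0.37, adjusted p = 0.028, edgeR). Pcdhb19 (log2 change -0.26) and Pcdhb11 (log2 change -0.22) had adjusted p-values of 0.014 and 0.032. These calls rested on single libraries. Pcdhb4 was lost without KO in DMSO replicate 2, KO in JQ1 replicate 1 or KO in JQ1 replicate 3 (adjusted p up to 0.15), and Pcdhb19 without KO in DMSO replicate 2 or KO in JQ1 replicate 3 (up to 0.069). Pcdhb11 was lost without KO in DMSO replicate 1 or 2 or KO in JQ1 replicate 1 or 3 (up to 0.13). The count of beta genes was 3 without KO in DMSO replicate 2 and 3 without KO in JQ1 replicate 3, and 5 without both KO replicate 3 libraries. With the replicate number as a block within each genotype, Pcdhb12 and Pcdhb21 were called as well, which made 8.

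Pcdhb17, Pcdhb5 and Pcdhb3 kept their calls in both genotypes whichever single library was left out. Scaling the libraries to the spiked-in ERCC RNAs instead of to the genes moved the median log2 change of all genes by -0.63 in WT and by 0.065 in KO. Under it 8 beta genes fell in WT and 0 were called in KO. The share of all genes called under spike-in scaling is not given here. Counts of calls on that scale, here and below, are thus not read as results about the members or lists.

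**Figure D2:**
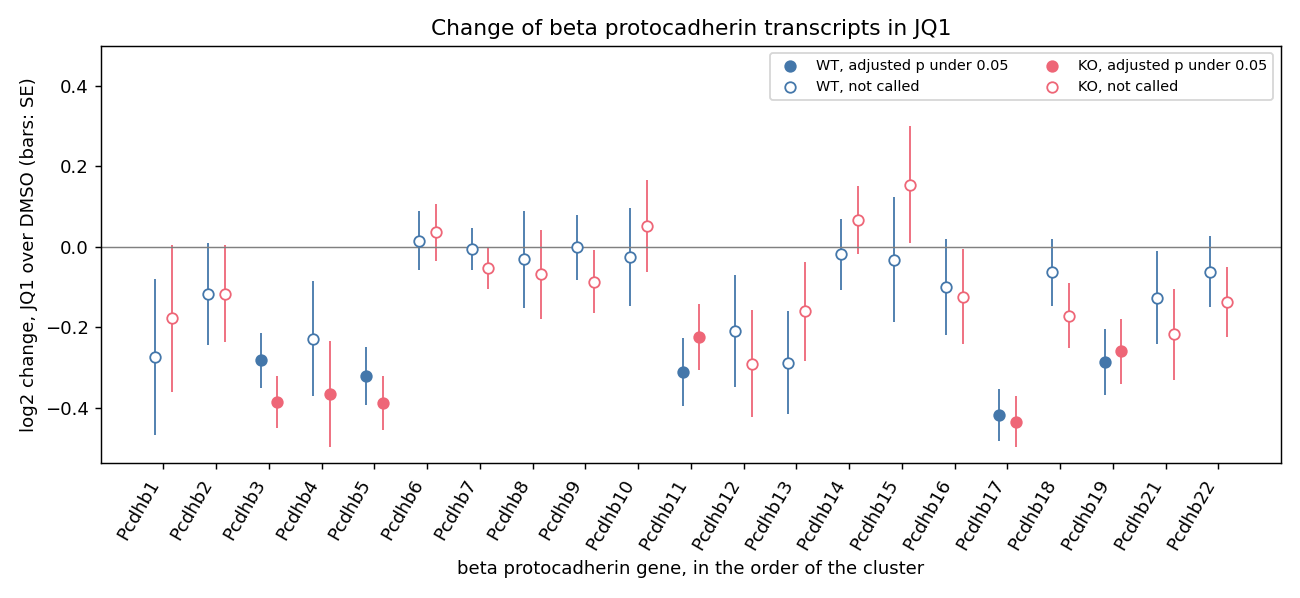
log2 change of each beta protocadherin in JQ1 over DMSO, in WT and in KO neurons, with genes in their order along the cluster; bars are standard errors and filled dots are calls at an adjusted p under 0.05. The filled dots of Pcdhb3, Pcdhb5, Pcdhb11, Pcdhb17 and Pcdhb19 lie below 0 in both genotypes, and Pcdhb7 lies near 0 in both.

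The JQ1 responses in WT and KO neurons come from different libraries, so they can be set beside each other. Across the 21 beta genes the log2 changes correlated with Spearman's rho of 0.86 and Pearson's r of 0.83, given as a description over genes that share libraries and depth. Between the response and the gene's place in the cluster rho was -0.017 in WT and 0.022 in KO (n = 21 genes).

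Whether the response differed between genotypes was tested directly. The difference of responses was called for 0 of 21 beta genes and 0 of 3 alpha and gamma rows by edgeR, for 0 members by DESeq2, and 0 members had an unadjusted p under 0.05. Over all genes 0% were called by edgeR (355 genes had an unadjusted p under 0.05). The estimates for the beta genes ran from -0.14 to 0.19 on the log2 scale, KO response minus WT response, which does not show that the responses were alike.

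The comparison of genotypes asked what loss of Fmr1 did to these genes. In DMSO 3 of 21 beta genes were higher in KO and 0 were lower, and 5 had no overlap between groups. Over all genes 15% were called, 7.21% as higher and 7.76% as lower, and 37.6% had no overlap; the 3 beta genes were 14.3% of theirs, so the share called at all was near the background. The median log2 difference of the beta genes was 0.025 against -0.015 over all genes, with 13 of 21 estimates above 0.

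Pcdhb5 differed most between genotypes. It was at 9.11, 9.48 and 9.79 CPM in WT and 13.4, 13.2 and 12.6 CPM in KO in DMSO. Each KO library was above each WT library, and the log2 difference, KO over WT, was 0.46 ± 0.068 (SE; adjusted p = 0.0014, edgeR). In JQ1, in other libraries, it was at 7.11, 7.79 and 7.84 CPM in WT and 9.55, 10.3 and 10.1 CPM in KO, a log2 difference of 0.40 ± 0.07 (SE; adjusted p = 0.0049, edgeR). Both calls of Pcdhb5 held whichever single library was left out, with adjusted p-values of at most 0.0097 in DMSO and 0.034 in JQ1. Mean levels were 9.46 ± 0.34 CPM in WT in DMSO and 9.96 ± 0.36 CPM in KO in JQ1 (SD, n = 3; this pair was not tested). The same means, also not tested, were 4.42 and 5.67 CPM for Pcdhb8 and 14.2 and 12.8 CPM for Pcdhb3. The other genes called between genotypes thus did not show the near-equal means of Pcdhb5. Pcdhb5 was the one beta gene with calls in all of the comparisons of treatment and of genotype.

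Pcdhb8 was at 4.95, 4.34 and 3.96 CPM in WT and 6.22, 6.39 and 5.27 CPM in KO in DMSO, without overlap (log2 difference 0.43 ± 0.12 SE, adjusted p = 0.025, edgeR). In JQ1 it was at 4.85, 4.28 and 3.59 CPM in WT and 5.57, 5.91 and 5.53 CPM in KO, again without overlap (log2 difference 0.40 ± 0.12 SE, adjusted p = 0.046, edgeR). The DMSO call was lost without WT replicate 2 or 3 or KO replicate 1 or 2 (adjusted p up to 0.084), and the JQ1 call without any 1 of the 6 libraries compared (up to 0.15).

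Pcdhb3 was at 13.9, 14.5 and 14.1 CPM in WT and 16.9, 17.6 and 15.9 CPM in KO in DMSO, without overlap (log2 difference 0.25 ± 0.066 SE, adjusted p = 0.024, edgeR). Of the single libraries left out in turn, KO replicate 3 alone left its call in place, and it was lost without each of the other 5 libraries (adjusted p up to 0.076). In JQ1 the libraries of Pcdhb3 overlapped, at 11.7, 11.4 and 12 CPM in WT and 13.4, 13.3 and 11.8 CPM in KO (log2 difference 0.15, adjusted p = 0.19, edgeR). With WT replicate 2 or 3 or KO replicate 1 or 2 in DMSO left out, 1 beta gene was called, and with KO replicate 3 left out 4 were, the fourth being Pcdhb4.

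In JQ1 2 of 21 beta genes were higher in KO and 0 were lower, Pcdhb5 and Pcdhb8, and 6 had no overlap. Over all genes 8.97% were called, 4.85% as higher and 4.13% as lower, and 27% had no overlap; the 2 beta genes were 9.52% of theirs, again near the background. The median log2 difference of the beta genes was 0.049 against -0.0045 over all genes. Without any single library of the 6 compared the count was 1, and without both KO replicate 3 libraries it was 2.

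The genotype difference of Pcdhb3, Pcdhb5 and Pcdhb8 in DMSO changed direction with the scaling. Under spike-in scaling the median of all genes moved by -0.81 in DMSO and by -0.12 in JQ1. On that scale 14 beta genes were lower and 0 higher in KO in DMSO, and 0 were called in JQ1. The median log2 difference of the beta genes in DMSO was then -0.74 against -0.82 over all genes, so their count goes with the shift of all genes. The log2 difference of Pcdhb5 in DMSO was then -0.34, that of Pcdhb8 -0.39 and that of Pcdhb3 -0.55, each above the median of all genes on that scale (-0.82) and none of these 3 called. In JQ1 the spike-in scaled log2 differences were 0.29 for Pcdhb5 and 0.27 for Pcdhb8, above 0 as in the reported fit. The spike-in counts behind that scaling were 39278 to 60614 in WT and 107995 to 187296 in KO libraries in DMSO. These libraries also differed in depth, at 33118140 to 36859618 gene counts in WT and 53174615 to 64000804 in KO. The KO libraries were uneven. Replicate 1 held 187296 spike-in counts beside 53564043 gene counts, and replicate 2 held 107995 beside 64000804.

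**Figure D3:**
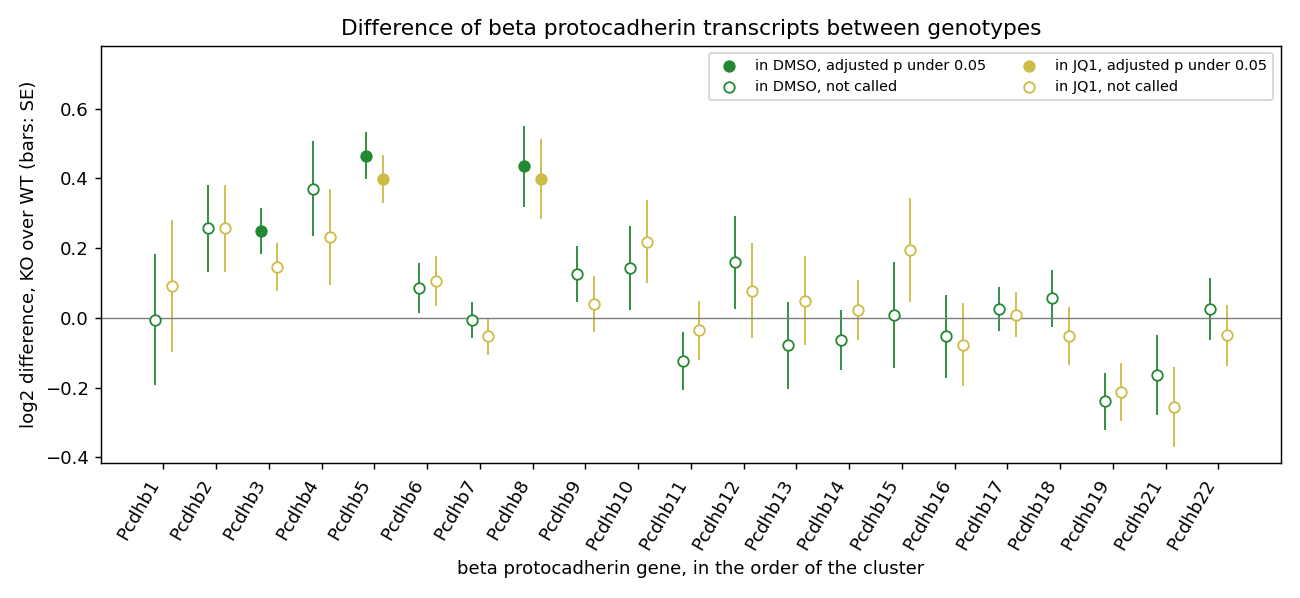
log2 difference of each beta protocadherin, KO over WT, in DMSO and in JQ1, with genes in their order along the cluster; bars are standard errors and filled dots are calls at an adjusted p under 0.05. The called genes Pcdhb3, Pcdhb5 and Pcdhb8 lie in the first 8 places, and estimates at the end of the cluster lie near or below 0; under spike-in scaling the 3 DMSO values of these genes are below 0.

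The genotype difference is described next by place in the cluster, counted over the 21 members, where place 1 is Pcdhb1 and place 21 is Pcdhb22. In DMSO the median log2 difference was 0.25 for the genes at places 1 to 7, 0.13 for places 8 to 14 and 0.0087 for places 15 to 21. In JQ1 these medians were 0.15, 0.049 and -0.052. Place in the cluster and the log2 difference correlated with rho of -0.58 in DMSO and -0.71 in JQ1 (n = 21 genes, description only).

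Exon length moves with place (rho 0.63) and with the log2 difference (rho -0.46 in DMSO and -0.65 in JQ1). Mean CPM moves with exon length (rho 0.55) and, less in DMSO, with the log2 difference (rho -0.19 in DMSO and -0.48 in JQ1). Place, length and level cannot be told apart with these genes. At the end of the cluster, Pcdhb19 was at 19.4, 19.4 and 22.4 CPM in WT and 17.0, 18.7 and 16.1 CPM in KO in DMSO, the opposite order to Pcdhb5 and without overlap. It was not called (log2 difference -0.24 ± 0.081 SE, adjusted p = 0.06, edgeR). Across the 21 genes, the differences measured in DMSO and in JQ1 correlated with rho of 0.80 and r of 0.88, from different libraries.

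The neuron markers moved with genotype as well: 6 of 10 were higher in KO in DMSO and 0 lower, and 1 was higher and 0 lower in JQ1. Of 9 astrocyte markers, 0 were higher and 2 lower in KO in DMSO, and 1 was lower in JQ1. JQ1 went with 5 lower astrocyte markers in WT and 4 in KO, with 0 higher, and with 2 higher and 4 lower neuron markers in each genotype. Progenitor markers were 0 higher and 1 lower of 8 in KO in DMSO, and 0 higher and 4 lower in JQ1. Of 7 tested fibroblast and vessel markers, 1 was higher and 1 lower in KO in DMSO and 0 higher and 1 lower in JQ1, and JQ1 went with 0 higher and 3 lower in each genotype. With JQ1, oligodendrocyte lineage markers were 1 higher and 3 lower of 8 in WT and 0 higher and 3 lower in KO, and 2 of 5 tested microglia markers were lower in WT and 3 in KO. Under spike-in scaling 0 neuron markers were higher and 3 lower in KO in DMSO, and 9 astrocyte markers were lower. In the reported fit, 7.21% of all genes were higher and 7.76% lower in KO in DMSO, and 4.85% and 4.13% in JQ1. With JQ1, 25.9% of all genes were higher and 29.3% lower in WT, and 27.7% and 29.4% in KO. The part of these markers in the results on the protocadherins was not tested.

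The alpha and gamma rows need care, because the table held 2 alpha and 1 gamma rows where the GENCODE vM21 annotation has 14 and 21 protein-coding genes. The identifier of the Pcdhgc5 row is named Pcdhgc4 in that annotation, and that of Pcdha3 was not matched. Of the 75-base words (the read length) in the vM21 transcripts of each gene, 57.7% for Pcdha11 and 36.6% for the Pcdhgc5 row also occurred in transcripts of other genes. For the beta genes it was 0% to 8.96%, except Pcdhb12 at 62.9%, whose values are therefore uncertain. No source used here states how reads on constant exons were assigned, and the Pcdha11 and Pcdhgc5 rows cannot be read as single isoforms.

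Pcdhgc5, a C-type gamma member by its name in the table, was at 635, 658 and 671 CPM in WT and 739, 743 and 713 CPM in KO in DMSO. KO libraries were all above WT libraries, and the log2 difference was 0.16 ± 0.043 (SE; adjusted p = 0.024, edgeR). The call was lost without WT replicate 1 or 2 or KO replicate 1 or 2 (adjusted p up to 0.095), and under spike-in scaling the log2 difference was -0.64. In JQ1 the row was at 676, 675 and 688 CPM in WT and 735, 750 and 702 CPM in KO, without overlap (log2 difference 0.10 ± 0.043 SE, adjusted p = 0.15, edgeR); without both KO replicate 3 libraries it was called. JQ1 against DMSO gave log2 changes of 0.054 ± 0.043 in WT and -0.0048 ± 0.043 in KO (SE), neither called.

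Pcdha11 was at 476, 466 and 475 CPM in WT in DMSO, 476, 494 and 467 CPM in KO in DMSO, 451, 467 and 455 CPM in WT in JQ1, and 451, 471 and 476 CPM in KO in JQ1. All comparisons overlapped and none was called; the log2 values ran from -0.045 to 0.025, with standard errors of 0.042 or less.

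Pcdha3 was at 22.8, 26.8 and 29.3 CPM in WT and 28.4, 30.5 and 27.7 CPM in KO in DMSO, and at 19.9, 23.9 and 23.7 CPM in WT and 22.5, 25.6 and 21.2 CPM in KO in JQ1. It fell in JQ1 in KO, where the groups did not overlap (log2 change -0.32 ± 0.096 SE, adjusted p = 0.012, edgeR). That call was lost without KO in JQ1 replicate 3 and without both KO replicate 3 libraries (adjusted p up to 0.057). In WT the groups overlapped and the log2 change was -0.23 ± 0.098 (SE; adjusted p = 0.064, edgeR). Of the 3 alpha and gamma rows, edgeR thus called 0 in JQ1 against DMSO in WT (1 at an unadjusted p under 0.05, 0 by DESeq2), 1 in KO, 1 between genotypes in DMSO and 0 between genotypes in JQ1 (1 at an unadjusted p under 0.05, 0 by DESeq2).

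**Figure D4:**
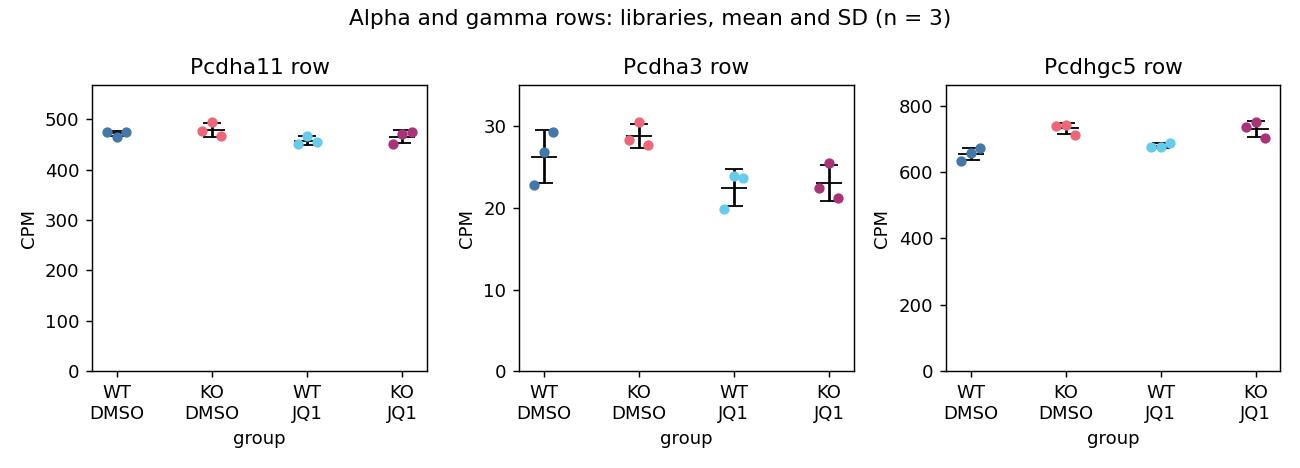
Levels of the 2 alpha rows and the gamma row in CPM by group, with axes starting at 0; dots are libraries, and dashes with bars are the mean and SD of 3 libraries. KO libraries lie above WT libraries in the Pcdhgc5 row under each treatment, Pcdha11 overlaps in all comparisons, and Pcdha3 is lower in JQ1 than in DMSO in KO.

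The authors' deposited table of KO against WT held all 24 members. In the authors' deposited table, adjusted p was under 0.05 for 4 of them, all higher in KO, and these 4 were the ones called here in DMSO: Pcdhb3, Pcdhb5, Pcdhb8 and Pcdhgc5. That table was made from the same series, so the match is not independent support. The share of all genes under 0.05 in it is not given here, and the count is not read as a result about the members.

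Genes known to act on the clusters were examined as a list of 28, all tested, that includes CTCF, cohesin subunits and loaders, DNA methyltransferases and BET proteins. In JQ1 17 rose and 3 fell in WT, and 16 rose and 2 fell in KO, beside 25.9% higher and 29.3% lower over all genes in WT and 27.7% and 29.4% in KO. The median log2 change was 0.18 in WT and 0.16 in KO, against -0.0043 and 0.0014 over all genes. Ctcf, the architectural protein bound at the clusters' promoters and enhancers, went from 94.5 ± 2.2 to 120 ± 3.1 CPM in WT (SD, n = 3; log2 change 0.34, adjusted p = 1.1e-05, edgeR) and changed by 0.44 on the log2 scale in KO. Brd2, a BET protein and so a target of JQ1, rose by 0.63 and 0.61 on the log2 scale in WT and KO. Dnmt1, the maintenance DNA methyltransferase, rose by 0.47 and 0.42, and Smc3, a cohesin subunit, by 0.42 in each. Tet1, which oxidises methylated cytosine, fell by 0.48 and 0.58, Wiz, a zinc-finger protein found with CTCF and cohesin, fell by 0.37 and 0.41, and Stag1, a cohesin subunit, fell by 0.18 in WT. Under spike-in scaling 0 of the 28 rose and 3 fell in WT, with a median of -0.43, and 0 were called in KO.

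Between genotypes 2 of the 28 were higher and 6 lower in KO in DMSO, and 0 were higher and 5 lower in JQ1, beside 7.21% and 7.76% over all genes in DMSO and 4.85% and 4.13% in JQ1. Lower in both treatments were Hells, a chromatin remodeller for DNA methylation, with log2 differences of -0.57 and -0.55, the cohesin subunits Stag1 (-0.28 and -0.24), Stag2 (-0.23 and -0.23) and Smc3 (-0.19 and -0.19) and the cohesin release factor Wapal (-0.25 and -0.27). Dnmt3a, a de novo DNA methyltransferase, was higher in DMSO by 0.22. Under spike-in scaling 0 were higher and 25 lower in DMSO, and 0 were called in JQ1.

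Of 25 tested genes for binding partners, processing and signalling of these proteins, 8 rose and 5 fell in JQ1 in WT, and 11 rose and 4 fell in KO, near the 55.1% and 57.1% of all genes called in either direction. Adam10, the protease that sheds the ectodomains of gamma protocadherins, rose by 0.46 and 0.52 on the log2 scale in WT and KO. Ptk2b, the kinase PYK2 that clustered protocadherins inhibit, fell by 0.67 and 0.74. In KO against WT 1 gene, Nlgn2, an adhesion protein of inhibitory synapses, was higher in DMSO (log2 difference 0.34) and in JQ1 (0.23), and 0 were lower. Beside this, 15% of all genes were called in DMSO and 8.97% in JQ1. With spike-in scaling 0 of the 25 rose and 7 fell in WT and 0 were called in KO in JQ1 against DMSO, and 0 were higher and 20 lower in KO against WT in DMSO.

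Genes beside the clusters on the same chromosome served to show whether neighbours moved alike. Of 15 tested, 3 rose and 4 fell in JQ1 in WT, and 4 rose and 4 fell in KO, near the 55.1% and 57.1% of all genes called. Taf7, a subunit of the transcription factor TFIID whose gene lies between the beta and gamma clusters, went from 25.7 ± 1.4 to 44.4 ± 2 CPM in WT and from 22.2 ± 0.87 to 40.8 ± 3.1 CPM in KO (SD, n = 3; log2 changes of 0.79 and 0.88). Taf7 moved opposite to the called beta genes. The 4 neighbours that fell moved in the same direction as those beta genes. They were Cd14 (log2 changes of -1.91 in WT and -1.89 in KO), Tmco6 (-0.42 and -0.35), Rell2 (-0.34 and -0.36) and Ik (-0.16 and -0.14). With spike-in scaling 0 neighbours rose and 4 fell in WT, and 1 rose and 1 fell in KO. Diap1 rose by 0.39 and 0.34 in the reported fit. Hdac3, a histone deacetylase gene beyond the gamma cluster, rose by 0.33 and 0.36. Between genotypes 1 neighbour (Hdac3, 0.14) was higher and 1 (Taf7, -0.21) lower in KO in DMSO, and 1 (Hdac3, 0.17) was higher and 0 lower in JQ1. These counts of 15 stand beside 15% of all genes called in DMSO and 8.97% in JQ1. Under spike-in scaling Taf7 was not called in JQ1 against DMSO in WT (log2 change 0.15) but was in KO (log2 change 0.94, adjusted p = 0.025, edgeR), and 0 neighbours were higher and 13 lower in KO in DMSO.

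Among 11 protocadherins outside the clusters, which have promoters spread over the genome, 4 rose and 2 fell in JQ1 in each genotype, near the 55.1% and 57.1% of all genes called. Pcdh19 rose by 0.45 and 0.40 on the log2 scale in WT and KO, Pcdh7 by 0.39 and 0.47, Pcdh9 by 0.36 and 0.46 and Pcdh10 by 0.27 and 0.28, whereas Pcdh15 fell by 1.01 and 0.94 and Pcdh18 by 0.60 in each. In KO against WT 2 were higher (Pcdh8, 0.31, and Pcdh1, 0.28) and 3 lower (Pcdh18, -0.53, Pcdh11x, -0.32, and Pcdh10, -0.22) in DMSO, and 1 higher (Pcdh8) and 1 lower (Pcdh18) in JQ1. Of all genes, 7.21% were higher and 7.76% lower in DMSO, and 4.85% and 4.13% in JQ1. Under spike-in scaling 0 of the 11 rose in JQ1 in either genotype, and 0 were higher and 8 lower in KO in DMSO.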

How the data were processed

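The authors deposited raw read counts per Ensembl gene for 12 libraries. Alignment used TopHat2 2.1.0 with mm9, and counting HTSeq 0.6.1, per the submitters' processing notes. Strand setting, counting mode and annotation release: not given in the sources used here. Genes that overlap or share sequence are therefore uncertain. The authors' deposited DESeq2 table holds a mean signal, log2 differences and their errors, a test score and p-values, raw and adjusted. It was used for comparison only. The 6 THZ1 samples were not analysed here.

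Counts were fitted with edgeR 4.0.16 in R 4.3.3: filterByExpr with a minimum count of 10, TMM scaling, 1 mean per group, quasi-likelihood F tests with 8 residual degrees of freedom, and Benjamini-Hochberg adjustment over 15433 genes. Standard errors come from the quasi-likelihood statistic. The 92 ERCC spike-in rows were left out of library sizes. The fit was tested on simulated data with planted changes. At 1.25-fold, 37.3% to 50.7% of the changed genes were called in the right direction, depending on the comparison. At 1.5-fold it was 76.1% to 80.6%. A gene not called here can thus have changed by such amounts. Exon lengths, order in the cluster and shared 75-base words are from GENCODE vM21.

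In JQ1 against DMSO in KO, same-numbered libraries deviated together (correlations 0.23, 0.29 and 0.21). That pairing comes from the data and not from the labels. The reported fit does not use it, and a block by replicate number within each genotype was added as an alternative. Elsewhere not all correlations passed 0.1. Alternatives were RLE scaling, spike-in scaling, no filter, a replicate block, only the groups compared, DESeq2 1.42.0 and leaving out libraries.

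Members and lists were chosen with earlier results of these data known. Named were the C-type member, up to 4 called members per direction, family and comparison with the largest changes, and called genes of the related lists with the largest changes, up to 4 per direction. A few more called or abundant members, Ctcf in WT and Smc3 in KO against WT were named after their values were seen. Promoter and protein sequences were not used here, and some genes of the related lists are not reported here.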

Additional observations from a re-analysis of the deposited data

How the results depend on the processing

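Counts of beta genes called were the same under RLE scaling and DESeq2 as in the reported fit. Spike-in scaling changed them most: 8 beta genes in JQ1 against DMSO in WT, 0 in KO, 14 in KO against WT in DMSO (all lower, a reversal) and 0 in JQ1. It called 1 alpha or gamma row in JQ1 against DMSO in WT, 0 in KO and 2 between genotypes in DMSO, both lower. No share of all genes called on that scale is set beside these counts. Its values for KO over WT in DMSO were -0.55 for Pcdhb3, -0.34 for Pcdhb5, -0.39 for Pcdhb8 and -0.64 for Pcdhgc5; the cause was not tested. In JQ1 against DMSO in WT, 1 alpha or gamma row (Pcdha3) was called with no filter, with the replicate block and with the block within each genotype. With that block, added after seeing the data, 8 beta genes were called in KO, Pcdhb12 and Pcdhb21 being the additional ones, and the replicate block over all groups gave 6; the latter changed no other count of calls. Same-numbered libraries correlated at 0.094 to 0.16 in JQ1 against DMSO in WT, each best with its own number, and at -0.18 to 0.12 between genotypes. In KO against WT in JQ1, fitting only the groups compared left 1 beta gene, with fewer samples for the spread. In JQ1 against DMSO in KO that fit left 5 beta genes, without Pcdhb4, and no filter gave 7, with Pcdhb12. Without both KO replicate 3 libraries, 0 alpha and gamma rows were called in JQ1 against DMSO in KO and 1 in KO against WT in JQ1. Leaving out 1 replicate at a time gave 4 to 6 beta genes in JQ1 against DMSO in WT, 3 to 6 in KO, 1 to 4 in KO against WT in DMSO and 1 to 1 in JQ1. For alpha and gamma rows it gave 0 to 1 in JQ1 against DMSO in WT, 0 to 1 in KO and 0 to 1 in KO against WT in DMSO. For the difference of responses the alternatives that could be run gave 0 members. The low counts of Pcdhb1 limit its precision: standard errors of its log2 values were 0.18 to 0.19.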
